A study of Homo sapiens with 4 samples.

Results

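The MYC promoter and the neighbouring PVT1 gene lie in chr8:128735000-129115000 (hg19), and the SMC1-bound contacts of that interval in A673 cells are described here. A member is any pair of anchors, that is, of genome segments joined by ligation, with an anchor overlapping the interval in any library. The rule found 2716 of the 1125468 anchor pairs seen over the 4 libraries. Of these, 268 had an anchor in the first 20 kb of the interval, called the MYC promoter window, and 2448 had an anchor only in the 360 kb after it, called the PVT1 window. The interval held 41 of the 79850 anchors, 2 in the MYC promoter window and 39 in the PVT1 window. A673 cells come from an Ewing sarcoma and express the EWS-FLI1 fusion protein. The study set 2 libraries of STAG2-null A673 cells, made by Cas9 editing and grown out as single-cell clones, against 2 libraries of wild-type (WT) A673 cells. Each library is a HiChIP experiment, in which DNA ends close together in the nucleus are ligated and those bound by SMC1 are enriched by immunoprecipitation, and each ligation read is a paired-end tag (PET). Nothing in the labels makes the libraries of a group separate cultures, so a p-value here speaks only to the spread among these 4 libraries, and that spread may be technical.

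MYC encodes a transcription factor that drives growth and division, and in many tumours its level is set by enhancers that lie far away in the gene-poor flanks on either side. PVT1 is a long non-coding RNA gene just downstream of MYC; it holds enhancers, and its promoter has been described as a competitor of the MYC promoter for them. Cohesin, of which SMC1 is a core subunit, extrudes chromatin loops, and STAG2 is one of its alternative STAG subunits. STAG2 mutations recur in Ewing sarcoma.

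STAG2-null 1 and 2 yielded 682724 and 698002 PETs, against 661881 and 765017 PETs in WT 1 and 2. The interval took 2431 and 2672 of them in STAG2-null cells, against 2325 and 2742 in WT cells. As shares of the library these were 0.356% and 0.383%, against 0.351% and 0.358%. Counts are thin: between 62.8% and 65.7% of the interval's pairs in a library rested on 1 PET. The deposited pairs had midpoints at least 5 kb apart and at most 2 Mb apart, so no contact beyond that limit could be seen. STAG2 had no promoter anchor placed by the tables used here, and contacts do not measure transcripts, so neither the knockout nor the cell type could be checked against marker genes.

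The anchor that covers MYC, chr8:128744367-128757028, was the interval's largest hub. It held 360 and 470 PETs in STAG2-null libraries, against 318 and 368 PETs in WT libraries. None of the 39 PVT1 anchors held more PETs than it, and of the 60425 anchors of the genome with at least 20 PETs it was among the 32 with the most. It is also the interval's widest anchor, at 12.7 kb against a median of 4.27 kb in PVT1, and counts per anchor are not scaled for width. Positions below are distances from the centre of this MYC anchor, positive downstream, towards PVT1. The other anchor of the MYC promoter window, chr8:128734261-128740516, lies 13.3 kb upstream of it.

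All 39 PVT1 anchors shared at least 1 PET with the MYC anchor, and 26 of them did so in every library. The PVT1 window's anchors at +16.1, +22.4 and +28.7 kb lie between MYC and the PVT1 start, but are counted as PVT1 anchors. Summed over the 4 libraries, the MYC anchor's strongest partner was the anchor at +59.4 kb, chr8:128804312-128815953, in which PVT1 itself starts on hg19. That pair held 14 and 22 PETs in STAG2-null libraries, against 23 and 26 PETs in WT libraries. The anchor 13.3 kb upstream held more in both STAG2-null libraries, with 16 and 29 PETs, against 18 and 16 PETs in WT libraries. In STAG2-null 1 several other partners also exceeded 14 PETs, led by the anchor 916 kb upstream with 20. Next among PVT1 partners came the anchor at +73.7 kb (chr8:128821051-128827701), with 15 and 12 PETs in STAG2-null libraries, against 18 and 14 PETs in WT libraries. The anchor at +80.8 kb followed, with 15 and 14 PETs in STAG2-null libraries, against 5 and 17 PETs in WT libraries. The MYC anchor thus met PVT1 most often around the PVT1 start, and 1 WT library was low for the pair at +80.8 kb. Towards the far end of PVT1 the counts were small: the last anchor, at +361 kb, had 0 and 3 PETs with the MYC anchor in STAG2-null libraries, against 3 and 3 PETs in WT libraries.

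**Figure D1:**
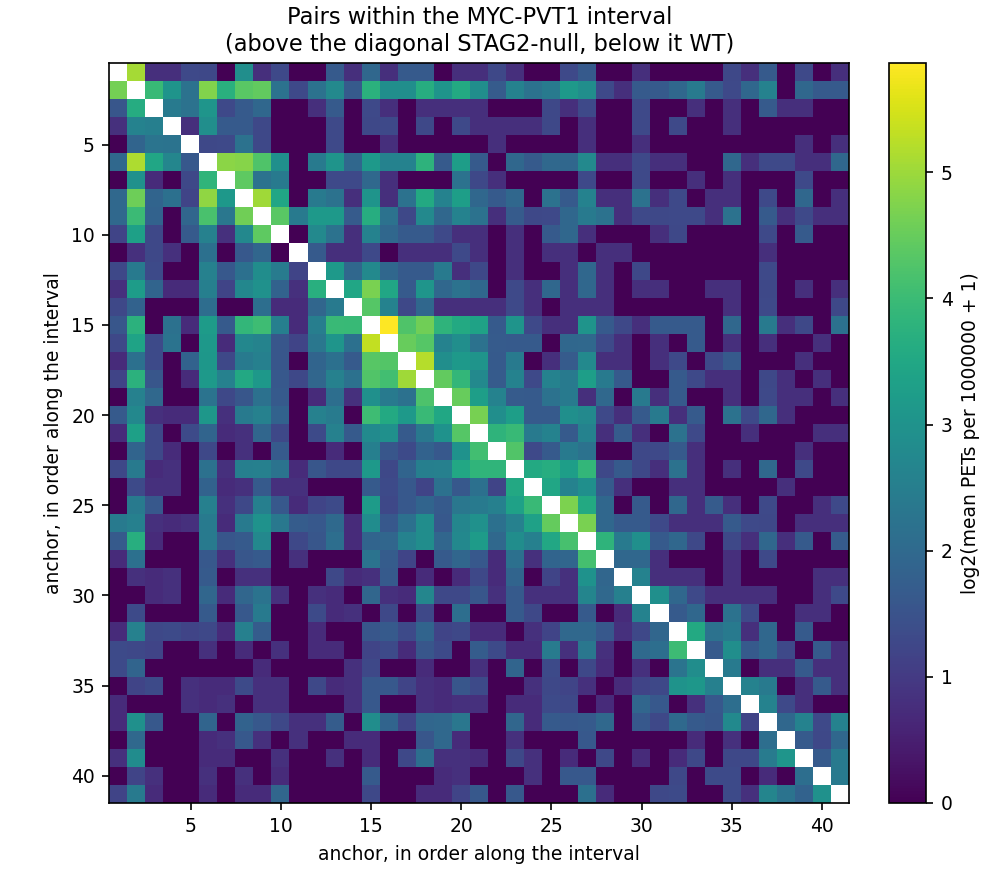
Pairs between the 41 anchors of the interval, numbered in genome order from the MYC promoter window (anchors 1 and 2) through PVT1, as log2 of mean PETs per 1000000 plus 1, with STAG2-null above the diagonal and WT below it. The brightest cells lie next to the diagonal. Row and column 2, the MYC anchor, are brightest towards anchor 1 and towards anchors 6, 8 and 9 around the PVT1 start, and dim towards the far end of PVT1.

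Beyond PVT1 the MYC promoter reached a few separate places in both flanks. Upstream, most PETs fell 500 to 1000 kb away, with 75 and 83 PETs in STAG2-null libraries, against 51 and 65 PETs in WT libraries. Many of them lay in a cluster 828 to 916 kb upstream. Nearer partners had smaller counts, such as the anchor 577 kb upstream, with 11 PETs summed over the libraries. The strip between 50 and 200 kb upstream was nearly empty, with 2 and 3 PETs in STAG2-null libraries, against 6 and 4 PETs in WT libraries. The cluster's leading anchor lay 916 kb upstream, at chr8:127828235-127841845. Its pair with the MYC anchor held 20 and 15 PETs in STAG2-null libraries, against 11 and 15 PETs in WT libraries. Among the 390792 pairs of at least 500 kb in the genome, 8 held as many PETs, itself included. The pair 861 kb upstream held 16 and 10 PETs in STAG2-null libraries, against 10 and 8 PETs in WT libraries. The pair 828 kb upstream held 7 and 14 PETs in STAG2-null libraries, against 4 and 6 PETs in WT libraries. In the last of these 3 pairs the groups did not overlap, and in the pair 861 kb upstream they met at 10 PETs. After normalisation, 19.7% of all tested pairs of the genome had both STAG2-null libraries above both WT libraries, as did 35 of the 88 tested pairs of at least 500 kb.

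Downstream, the MYC promoter's contacts lay closer and also further out. The leading pair ran to +557 kb (chr8:129303525-129311990) and held 16 and 19 PETs in STAG2-null libraries, against 8 and 13 PETs in WT libraries. The pair to +386 kb (chr8:129133216-129141094), just past the end of the PVT1 window, held 12 and 13 PETs in STAG2-null libraries, against 6 and 6 PETs in WT libraries. In both pairs each STAG2-null library lay above each WT library. At the far edge of what the files allow, the pair to +1945 kb (chr8:130690579-130701359) held 8 and 14 PETs in STAG2-null libraries, against 4 and 9 PETs in WT libraries. The longest MYC promoter pair downstream with a PET in every library ran 1991 kb and held 3 and 10 PETs in STAG2-null libraries, against 2 and 4 PETs in WT libraries. Upstream the longest such pair with at least 4 PETs ran 928 kb and held 2 and 1 PETs in STAG2-null libraries, against 3 and 4 PETs in WT libraries. Both of these long pairs rest on few PETs in at least 1 library.

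**Figure D2:**
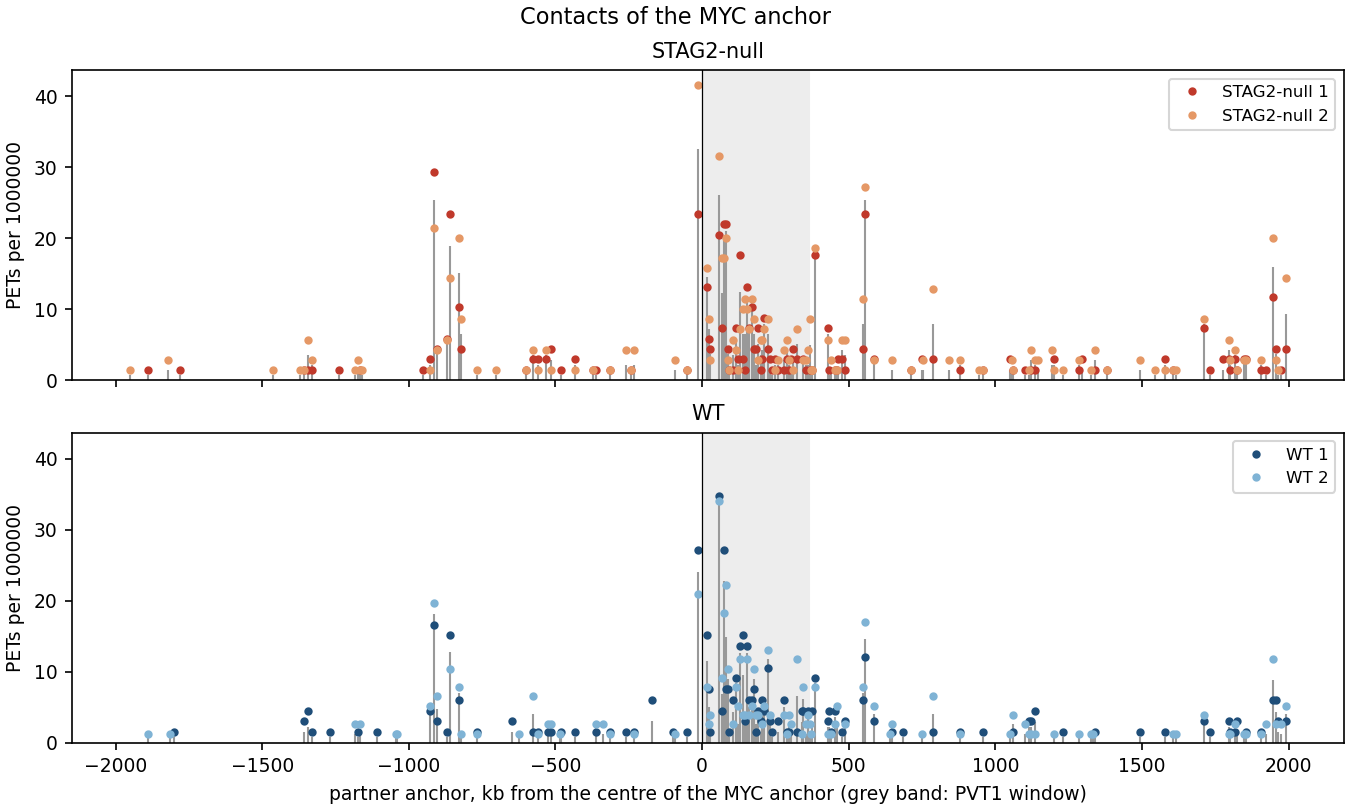
PETs per 1000000 between the MYC anchor and each partner, by the partner's distance in kb, with STAG2-null libraries in the upper panel and WT libraries in the lower one. Points are libraries, grey lines are group means and the grey band is the PVT1 window. Both panels show the PVT1 contacts, the cluster 828 to 916 kb upstream and the partners at +386, +557 and +1945 kb.

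Seen from the flanks, the MYC anchor was the usual first partner in the interval. In all, 67 flank anchors shared at least 20 PETs with the interval, and for 51 of them no interval anchor shared more PETs than the MYC anchor. The anchor 916 kb upstream put 61 of its 241 interval PETs on the MYC anchor, 25.3%, and 16 on the next, the anchor where PVT1 starts. At +557 kb it was 56 of 284 PETs, 19.7%, against 21 on the next. At +386 kb it was 37 of 292 PETs, 12.7%. The distant partners also met each other: the anchors at 916 kb upstream and +557 kb shared 5 and 10 PETs in STAG2-null libraries, against 3 and 10 PETs in WT libraries, over 1473 kb. That contact did not separate the groups.

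PETs of the PVT1 window had a smaller long-range share than those of the MYC promoter window. Of the PVT1 window's PETs without the MYC promoter, 59.7% and 58.0% stayed inside the interval in STAG2-null libraries, against 59.0% and 60.1% in WT libraries. Those of at least 500 kb made up 26.9% and 26.8% in STAG2-null libraries, against 25.0% and 23.6% in WT libraries. For the MYC promoter window the same share was 43.8% and 44.8% in STAG2-null libraries, against 35.2% and 37.9% in WT libraries. The MYC promoter window's share at long range was thus above that of the PVT1 window in each of the 4 libraries. The windows are unlike, at 20 kb with 1 internal pair and 360 kb with 621. Short pairs inside the PVT1 window enter its share, and pairs between the MYC promoter and PVT1 count only for the MYC promoter. The shares were not corrected for this. Over the genome 88 pairs of at least 500 kb had at least 20 PETs; 6 of them ended on the MYC anchor and none in the PVT1 window alone.

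The question the design puts is which of these contacts differ with and without STAG2. Contacts of the MYC promoter that left the interval were more frequent per library PET in both STAG2-null libraries, while those to PVT1 were not. Downstream of the interval the MYC promoter had 204 and 274 PETs per 1000000 in STAG2-null libraries, against 144 and 156 in WT libraries, a ratio of means of 1.60. Upstream it had 157 and 173 PETs per 1000000 in STAG2-null libraries, against 119 and 116 in WT libraries, a ratio of 1.40. With PVT1 it had 252 and 314 PETs per 1000000 in STAG2-null libraries, against 290 and 286 in WT libraries, a ratio of 0.981. The groups overlapped for PVT1 and lay apart for both flanks.

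As shares of the MYC promoter's own PETs, 39.4% ± 0.371 reached PVT1 in STAG2-null libraries and 49.7% ± 0.399 in WT libraries (SD, n = 2 each). The downstream flank took 33.1% ± 1.47 in STAG2-null libraries and 25.8% ± 1.501 in WT libraries, and the upstream flank 23.1% ± 2.15 in STAG2-null libraries and 20.3% ± 0.341 in WT libraries. The upstream difference of 2.80 percentage points was 1.28 without STAG2-null 1 and 4.32 without STAG2-null 2. For a single library, the 95% Wilson interval of the share reaching PVT1 was 35.1% to 44.3% in STAG2-null 1, against 45.0% to 55.0% in WT 1. These intervals cover counting error only. With 2 libraries against 2, the two-sided exact permutation test cannot go below p = 0.333, which is what each of these 3 shares and the PETs per 1000000 of both flanks gave. Over all pairs of the libraries, those of at least 500 kb also took larger shares in STAG2-null cells, at 18.6% and 17.9% of PETs, against 16.9% and 17.5% in WT cells.

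**Figure D3:**
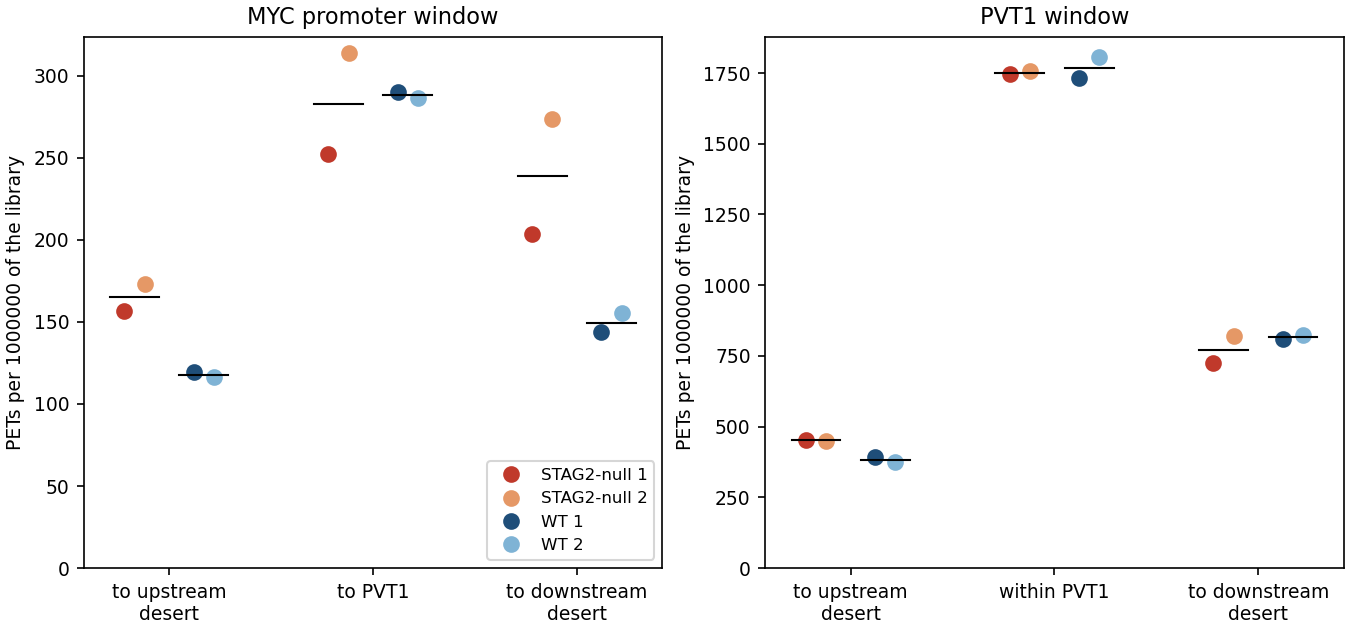
PETs per 1000000 of the library by where the contact goes, for the MYC promoter window (left) and for pairs of the PVT1 window without the MYC promoter (right), with a point per library and a line at each group's mean. STAG2-null points lie above WT points for the MYC promoter in both flanks and for PVT1 in the upstream flank, and overlap WT points elsewhere.

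To test the promoter window as a whole, the genome was divided into windows of the same length and the PETs of each were tested against genotype (edgeR, quasi-likelihood). The MYC promoter window held 434 and 560 PETs in STAG2-null libraries, against 384 and 443 PETs in WT libraries, and ranked 111 among 44819 windows by PETs. Normalised to library size, that was 718 ± 113 PETs in STAG2-null libraries and 580 ± 3.61 PETs in WT libraries (SD, n = 2 each). The change was 0.31 ± 0.11 on the log2 scale (SE), with an unadjusted p of 0.00804 and an adjusted p of 0.148 (edgeR, Benjamini-Hochberg), and did not pass the threshold of an adjusted p under 0.05. Of all such windows 2.48% passed. STAG2-null 2 carried much of the difference: the log2 change was 0.14 without it and 0.46 without STAG2-null 1. STAG2-null 2 also had more PETs in the surrounding 10 Mb, 0.895% of its library against 0.814% in STAG2-null 1 and 0.790% and 0.809% in the WT libraries. Scaled to that 10 Mb, the log2 change of the MYC promoter window was 0.21. The 10 Mb include the interval, at 0.356% of STAG2-null 1 and 0.383% of STAG2-null 2. Part of any change at the interval is therefore scaled away.

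Split by length, the same window's log2 change was 0.50 ± 0.16 over pairs of at least 500 kb (adjusted p = 0.140, edgeR) and 0.14 ± 0.13 over shorter ones (adjusted p = 0.672, edgeR). The ratio of long to short pairs was then tested against genotype in each window. At the MYC promoter window it was 0.37 ± 0.15 higher on the log2 scale in STAG2-null cells (unadjusted p = 0.0125, adjusted p = 0.718, edgeR). No window of 17353 passed that test, against 1084, or 6.25%, at an unadjusted p under 0.05, and 26.3% of them had a value at least as high. The split by length and this test were chosen after values had been seen.

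Among single pairs, 77 of the interval's 2716 had at least 20 PETs over the libraries and were tested, 20 of them at the MYC promoter. None passed, where 0.194% of all 11872 tested pairs did. At an unadjusted p under 0.05 there were 3, against 9.59% of all tested pairs, and the smallest adjusted p was 0.369 (edgeR). DESeq2 called 0 of all 11872 tested pairs, so its 0 at the interval says nothing about these pairs. The 7 tested MYC promoter pairs that left the interval all had log2 changes above 0, with a median of 0.68, where the median was −0.044 over all tested pairs. The 88 tested pairs of at least 500 kb over the genome had a median of 0.32, and 65 of them were above 0. The 12 tested pairs between the MYC promoter and PVT1 had a median of −0.25, with 4 above 0.

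**Figure D4:**
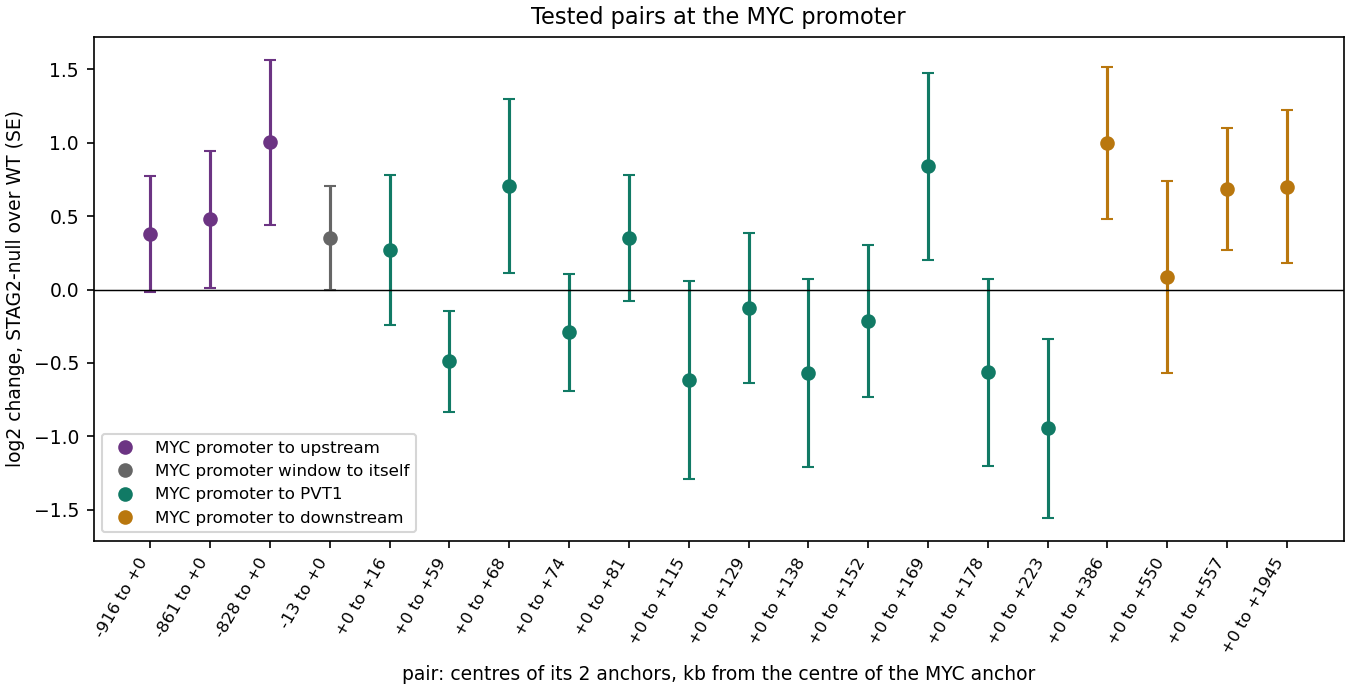
Log2 change (STAG2-null over WT, with SE) of the 20 tested pairs at the MYC promoter, ordered from the farthest upstream partner to the farthest downstream one. The 3 upstream and 4 downstream pairs lie above 0 and the 12 pairs with PVT1 scatter on both sides, with 1 pair inside the promoter window between them; no pair passed the test.

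The pair to +386 kb had a log2 change of 0.997 ± 0.52 (adjusted p = 0.521, edgeR), and 0.92 to 1.07 on leaving out a library. The pair 828 kb upstream had one of 1.005 ± 0.56 (adjusted p = 0.575, edgeR), which was 0.47 without STAG2-null 2. For the pair to +557 kb the log2 change was 0.68 ± 0.41, and 0.45 without WT 1. For the pair 916 kb upstream it was 0.38 ± 0.39. With the PVT1 start the MYC anchor's log2 change was −0.49 ± 0.34. It was −0.25 without STAG2-null 1, −0.80 without STAG2-null 2, −0.26 with each length class scaled to its own total and −0.043 with anchors merged within 5 kb. With the anchor at +223 kb the log2 change was −0.94 ± 0.61, and −0.58 without STAG2-null 1 and −1.47 without STAG2-null 2. That pair held 3 and 6 PETs in STAG2-null libraries, against 7 and 10 PETs in WT libraries. None of these 6 changes reached an unadjusted p under 0.05.

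PVT1 as a whole did not differ beyond the spread between libraries. Its window, which the MYC anchor's last bases overlap and which therefore counts that anchor's PETs too, held 2373 and 2619 PETs in STAG2-null libraries, against 2286 and 2697 PETs in WT libraries. The log2 change was 0.012 ± 0.091 (adjusted p = 0.959, edgeR), where 11.2% of windows of that length passed. With each anchor placed by its midpoint, the log2 change was −0.037. That setting puts the MYC anchor outside the window but still counts its pairs with PVT1 anchors. The full interval ranked 6 among 6213 windows of its length by PETs, with a log2 change of 0.018 ± 0.084 (adjusted p = 0.935, edgeR), where 10.7% passed. Within PVT1 there were 1746 and 1756 PETs per 1000000 in STAG2-null libraries, against 1731 and 1806 in WT libraries. Contacts of PVT1 with the upstream flank were apart by group, at 454 and 450 PETs per 1000000 in STAG2-null libraries, against 393 and 374 in WT libraries. Those with the downstream flank overlapped, at 725 and 819 PETs per 1000000 in STAG2-null libraries, against 808 and 825 in WT libraries. For the upstream flank the exact permutation test gave p = 0.333, the lowest it can reach with 2 libraries against 2. For the PVT1 window, again with the MYC anchor's pairs counted in it, the ratio of long to short pairs was higher in STAG2-null cells. The difference was 0.19 ± 0.06 on the log2 scale (adjusted p = 0.265, edgeR), where 0.0925% of windows passed. The ratio was not tested without that anchor.

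The strongest PVT1 pairs joined neighbouring anchors. The pair between +129 and +138 kb (chr8:128875420-128884436 and chr8:128885209-128892909) held 43 and 36 PETs in STAG2-null libraries, against 22 and 34 PETs in WT libraries. Its groups did not overlap, and its log2 change was 0.45 ± 0.29 (adjusted p = 0.639, edgeR). The pair between +146 and +152 kb held 23 and 27 PETs in STAG2-null libraries, against 24 and 21 PETs in WT libraries. From the PVT1 start to the anchor at +68.3 kb there were 19 and 19 PETs in STAG2-null libraries, against 9 and 10 PETs in WT libraries, a log2 change of 0.94 ± 0.42 (adjusted p = 0.419, edgeR). Over the 77 tested pairs, 13 had both STAG2-null libraries above both WT libraries and 9 had both below, after normalisation. Over all tested pairs the shares were 19.7% above and 20.3% below.

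Summed over all their contacts, none of the 41 anchors passed, where 0.875% of all 60425 tested anchors did. At an unadjusted p under 0.05 there were 2, against 11.9% of all tested anchors. DESeq2 called 0 of the 41, where of all 60425 it called 2 as higher and 20 as lower in STAG2-null cells. The nearest to the threshold was a narrow anchor at +68.3 kb, chr8:128818189-128819759, between the PVT1 start and +73.7 kb. It held 80 and 85 PETs in STAG2-null libraries, against 51 and 62 PETs in WT libraries, a log2 change of 0.59 ± 0.20 (adjusted p = 0.140, edgeR). Merged with its neighbours within 5 kb, the resulting anchor's log2 change was −0.017. The MYC anchor's log2 change was 0.31 ± 0.12 (adjusted p = 0.237, edgeR), and 0.13 without STAG2-null 2 and 0.48 without STAG2-null 1. The other anchor of the MYC promoter window had 90 and 119 PETs in STAG2-null libraries, against 84 and 91 PETs in WT libraries, a log2 change of 0.29 ± 0.17 (adjusted p = 0.512, edgeR), and of 0.097 without STAG2-null 2 and 0.47 without STAG2-null 1.

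The 10 PVT1 anchors with the most PETs were led by +129 kb, with 246 and 232 PETs in STAG2-null libraries, against 202 and 275 PETs in WT libraries. The anchor where PVT1 starts came next, with 194 and 219 PETs in STAG2-null libraries, against 202 and 233 PETs in WT libraries. Both overlapped between groups, with log2 changes of 0.048 ± 0.13 and −0.036 ± 0.14. In the part of the PVT1 window nearer to MYC than its midpoint, 11 of 19 anchors had log2 changes above 0, with a median of 0.029. Beyond the midpoint 4 of 20 did, with a median of −0.16, and the median over all tested anchors was 0.00127. The division at the midpoint was made after the values were seen.

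**Figure D5:**
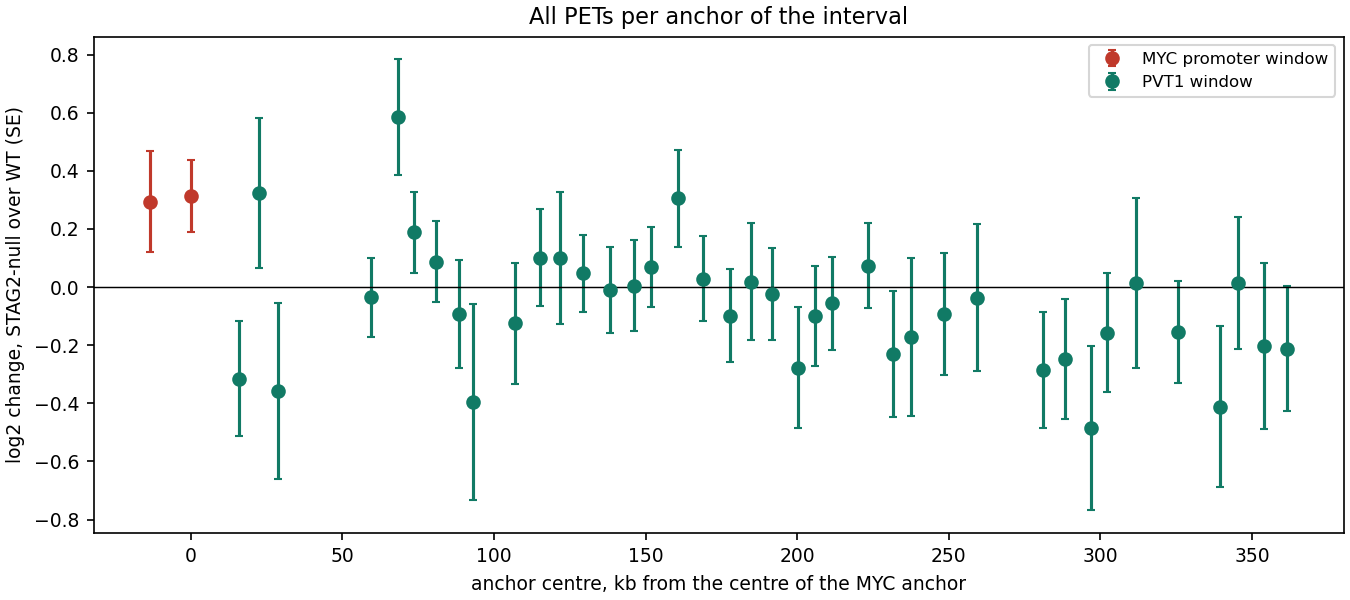
Log2 change (STAG2-null over WT, with SE) of all PETs at each of the 41 anchors, by distance in kb from the MYC anchor. The 2 anchors of the MYC promoter window lie at 0.29 and 0.31, the anchor at +68.3 kb is highest at 0.59, and most anchors beyond the midpoint of PVT1 lie below 0.

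The authors' deposited table of high-confidence loops holds 139 of its 22680 loops at the interval. Of these, 33 end in the MYC promoter window: 19 run to PVT1, 9 to the downstream flank, 4 to the upstream flank and 1 stays within the window. The other loops lie mostly inside PVT1, with 94 there, 10 to the downstream flank and 2 to the upstream one. The authors' deposited table of differential loops holds 650 over the genome, beside the 22680 high-confidence ones. None of the 650 ends in the MYC promoter window, which says little where so few loops are differential anywhere. Of the 650, 2 touch the interval, both inside PVT1. The first joins +68.3 and +73.7 kb and held 12 and 16 PETs in STAG2-null libraries, against 5 and 6 PETs in WT libraries. The authors' deposited table gives it a log2 change of 1.32 and an adjusted p of 0.0784, by independent hypothesis weighting. This adjusted p, like the others quoted from that table, is above the threshold of 0.05 used here. That table's log2 values run WT over mutant, judged by its column for the stronger genotype in all 650 loops, and are given here turned to STAG2-null over WT. In the test over all pairs used here its log2 change was 1.28 ± 0.51 (adjusted p = 0.369, edgeR). The second joins +129 and +206 kb and held 1 and 0 PETs in STAG2-null libraries, against 4 and 8 PETs in WT libraries. Its log2 change is −3.30 and its adjusted p 0.0513 in the authors' deposited table, and with so few PETs it was not tested here.

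The authors' deposited table of differential loops also marks anchors for CTCF, the insulator protein that halts cohesin, for FLI1, whose DNA-binding part is in the EWS-FLI1 fusion, for H3K27ac, a mark of active enhancers and promoters, and for promoters. No loop of that table ends on the MYC anchor, and the table of high-confidence loops has no columns of marks, so the MYC anchor's own marks were not analysed here. The anchor 916 kb upstream carries CTCF, FLI1 and H3K27ac. The partner at +557 kb and the one at +1711 kb carry FLI1 and H3K27ac, as does the PVT1 anchor at +73.7 kb. Marks are given only for anchors that end a differential loop, so several leading partners of the MYC anchor have no marks to read. Of the other marked PVT1 anchors, +206 kb is a promoter, and +68.3 and +129 kb carry none of the 4 marks. A differential loop in the downstream flank joins the FLI1-marked partners at +557 and +1711 kb, with 8 and 6 PETs in STAG2-null libraries, against 0 and 2 PETs in WT libraries, and a log2 change of 2.65 with an adjusted p of 0.0658 in the authors' deposited table.

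Of 13 genes of the MYC network only MNT, a repressor that competes with MYC for their partner MAX, had a promoter anchor placed by the authors' deposited table. It held 159 and 175 PETs in STAG2-null libraries, against 197 and 192 PETs in WT libraries, a log2 change of −0.18 ± 0.14 (adjusted p = 0.638, edgeR). None of 15 genes listed for the flanks had one. Among 162 placed genes, those whose normalised PETs over the 4 libraries varied most like the MYC promoter's were SLC26A2, a sulfate transporter, DAPK1, a kinase linked to cell death, and MYO10, an unconventional myosin. Their Euclidean distances on centred log2 values were 0.0921, 0.101 and 0.152, a description over 4 libraries.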

How the data were processed

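Formaldehyde-fixed A673 chromatin was precipitated with an SMC1 antibody, per the labels' protocols. The submitters' processing notes name HiC-Pro and hg19 with no version. The authors deposited, library by library, a PET count and a p-value for every anchor pair; that p-value was not used. A log2 fold change and adjusted p-value per differential loop were also deposited by the authors. Settings of the loop caller are not given in the sources used.

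Counts per pair, per anchor and per window (380, 20 and 360 kb, aligned to the interval) with at least 20 PETs over the 4 libraries were tested genome-wide with edgeR 4.0.16 (R 4.3.3, quasi-likelihood, TMM factors, library sizes over all PETs) on genotype alone, adjusted by Benjamini-Hochberg and called under 0.05. DESeq2 1.42.0, other scalings, filters, anchor merging, pair lengths, a replicate block and leaving out each library were alternatives. Ratios of long to short pairs were tested with library as a term. Shares carry 95% Wilson intervals and exact permutation tests (scipy 1.17.1). Normalised PETs are on a scale of 1000000. Libraries hold between 661881 and 765017 PETs, so pairs are sparse.

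Pairs named are the tested ones, the 10 with most PETs per class and the longest with at least 4 PETs in each direction; anchors named are those of the promoter window and the 10 largest of PVT1. Members, lists and rules were chosen with earlier results of these data known. The tests were tried on simulated counts. A gene was placed where a row of the differential table names 1 gene and 1 promoter anchor. Same-numbered libraries of the groups did not deviate together. With sparse counts this does not settle whether they share a preparation.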

Additional observations from a re-analysis of the deposited data

How the results depend on the processing

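No pair and no anchor of the interval was called under any of the settings run. The MYC promoter window stayed above 0 in all of them, with log2 changes of 0.14 to 0.46 on leaving out a library. It passed in no setting that kept all 4 libraries. The full interval and PVT1 had values near 0 whose sign turned: scaled per 10 Mb, −0.038 for the interval and −0.045 for PVT1; over pairs of at least 20 kb, −0.0059 and −0.016; over pairs under 500 kb, −0.017 and −0.021; and, for PVT1 with anchors placed by midpoint, −0.037. The scaling per 10 Mb divides by PETs that include the interval's own. Leaving out a library gave −0.019 to 0.047 for the interval and −0.026 to 0.047 for PVT1. The pair of the 2 MYC promoter window anchors ranged over −0.088 to 0.67 and the pair from the MYC anchor to +68.3 kb over −0.00050 to 1.34 on leaving out a library; with anchors merged within 5 kb that pair, then joined with the one to the PVT1 start, was at −0.043 and the anchor at +68.3 kb at −0.017, since merging joins it to its larger neighbours. Share differences (STAG2-null minus WT, percentage points) moved for the MYC promoter to PVT1 to −10.9 over pairs of at least 20 kb. For PVT1 at long range they moved to 4.83 with merged anchors and 4.78 over pairs of at least 20 kb, and for PVT1 inside the interval to −2.57 and −3.21. With the replicate number as a replicate block, the MYC promoter window changed by 0.30 (adjusted p = 0.181, edgeR) and no call at the interval changed. The correlation of same-numbered libraries over tested pairs was 0.00306. Counts per pair are sparse, so this value does not settle whether same-numbered libraries share a preparation. Scaling per chromosome or per 10 Mb put the median of all tested pairs at 0.11 and 0.12, against −0.044. Scaling per length class was run for pairs only. The ratio of long to short pairs, chosen after seeing the data like the splits by length and the placing by midpoint, passed on leaving out no library and ranged over 0.30 to 0.43 at the MYC promoter window. Calls over the whole genome depend on the setting: 23 pairs, against 0 (DESeq2) to 24 (replicate block); 529 anchors, against 0 (scaled per 10 Mb) to 763 (at least 40 PETs); 1111 promoter-sized windows, against 0 (without STAG2-null 2) to 1352 (at least 40 PETs); 663 interval-sized windows, against 59 (scaled per 10 Mb) to 1044 (without STAG2-null 1); and 727 PVT1-sized windows, against 8 (pairs of at least 500 kb) to 999 (without STAG2-null 1). The tests were also run on simulated counts at this depth and number of libraries. The pair test for 11872 pairs called 2% of those changed by 1 and 30% of those changed by 2 on the log2 scale. For promoter-sized windows the shares called were 21% and 66%, and for their ratio of long to short pairs 7% and 42%. A failure to pass these tests therefore says little about changes of that size.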

Other observations

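The 3 upstream partners of the MYC anchor also met each other. The anchors 916 and 861 kb upstream shared 18 and 14 PETs in STAG2-null libraries, against 9 and 13 PETs in WT libraries. The groups overlapped for the other pairs, with 8 and 14 PETs in STAG2-null libraries, against 8 and 4 PETs in WT libraries, between 916 and 828 kb, and with 10 and 7 PETs in STAG2-null libraries, against 6 and 9 PETs in WT libraries, between 861 and 828 kb. In the authors' deposited table of differential loops, the anchor 916 kb upstream forms a loop with its neighbour 905 kb upstream, which carries H3K27ac. That loop held 23 and 33 PETs in STAG2-null libraries, against 15 and 11 PETs in WT libraries. Its log2 change is 1.08 with an adjusted p of 0.0512 in the authors' deposited table, and was 1.05 with an adjusted p of 0.236 in the edgeR test over all pairs.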
